A study of Mus musculus with 14 samples.

Results

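The genes of the glutamate and GABA receptor subunits were followed through the development of the mouse pontine nuclei (PN). They were chosen by gene symbol: the AMPA (Gria), NMDA (Grin), kainate (Grik), delta (Grid) and metabotropic (Grm) glutamate receptor genes and the GABA-A receptor genes (Gabr). The rule matched 45 of 31054 annotated features, and 41 to 44 of the 45 had at least 1 unique molecular identifier (UMI, a tag counted once per captured transcript) in each library. Single cells of C57BL/6J mice came from the hindbrain at the embryonic stages E14.5 and E18.5 and from the PN at postnatal day 5 (P5), in 14 libraries. All animals carried Atoh1Cre, a knock-in that leaves 1 Atoh1 copy without function, and RosaLSL-TdTomato, a reporter switched on in the Cre lineage. Controls (3 libraries at each embryonic stage and 2 at P5) kept a wild-type second copy, so that they were themselves heterozygous for Atoh1. Atoh1S193A/- embryos (3 libraries at each embryonic stage, none at P5) carried over the Cre null a hypomorphic copy in which serine 193 is alanine. Each embryonic library was 1 embryo, taken with a littermate of the other genotype, and each P5 library pooled several pups. Libraries of a stage with the same replicate number are called littermates below, which the labels do not state. TdTomato-positive cells that excluded DAPI were sorted, and the label therefore covers every descendant of an Atoh1Cre-expressing cell.

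Glutamate is the main excitatory and GABA the main inhibitory transmitter of the brain. AMPA, NMDA and kainate receptors are cation channels built of several subunits, metabotropic receptors act through G proteins, and GABA-A receptors are chloride channels that usually combine alpha, beta and gamma subunits. PN neurons are glutamatergic, arise from Atoh1-expressing progenitors of the rhombic lip, migrate along the surface of the brainstem, and relay cortical input to the cerebellum as mossy fibres.

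After filtering, 80250 cells remained, with 3248 to 8726 per library and a median of 12010.5 to 20922 UMIs per cell. A level is given below in CPM, the UMIs of a gene per 1000000 UMIs summed over the cells of a class in a library. Because only the 3′ end of each transcript is counted, it does not scale with transcript length. Cells were clustered without the receptor genes, and clusters were named "like" a cell type from marker genes. The samples are labelled as neurons, but the P5 libraries also held 569 astroglia-like, 1057 oligodendrocyte lineage-like and 935 microglia-like cells. The S193A change cannot be seen in 3′ counts, so that the level of Atoh1 does not check the genotype labels. In E14.5 progenitor-like cells Atoh1 was at 224, 209 and 133 CPM in controls and at 160.0, 175 and 131 in Atoh1S193A/- libraries, with overlapping ranges and each mutant below its littermate. In the E14.5 sums over all sorted cells it was at 136.6, 55.0 and 57.5 in controls and at 143.8, 86.2 and 100.3 in mutants, each above its littermate. In E18.5 granule progenitor-like cells it was at 49.6, 56.8 and 55.0 in controls and at 78.7, 64.0 and 63.8 in mutants, and in granule neuron-like cells at 10.2, 8.19 and 7.74 and at 25.8, 22.9 and 18.7, with every mutant above every control in both. Pairs of libraries shared 0.163% to 0.624% of cell barcodes.

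The first question was which receptor genes differ between the progenitors and the neurons of the PN lineage at E14.5. Gria2, the AMPA subunit that blocks calcium entry when its transcript is edited, was at 13.6, 17.5 and 18.3 CPM in the progenitor-like cells of the 3 control libraries and at 269, 302 and 227 in the differentiated neuron-like cells. The means were 16.2-fold apart and the ranges did not overlap. Between these states Gria2 stood at 10.3, 18.8 and 11.9 in intermediate progenitor-like cells, at 50.3, 68.9 and 60.9 in the first migrating state (migrating neuron-1-like) and at 159, 196 and 154 in the second (migrating neuron-2-like). Its level was therefore higher in each state after the intermediate progenitors, in every control library. Gria4, another AMPA subunit, was at 2.04, 4.56 and 3.67 in progenitor-like and 13.9, 15.9 and 17.2 in differentiated neuron-like cells.

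Grin1 and Grin2b, of the 7 NMDA receptor genes, were not yet higher in the first migrating state. Grin2b, the GluN2 subunit that prevails in the immature brain, was at 9.52, 14.8 and 14.7 CPM in progenitor-like cells, 4.91, 6.73 and 7.74 in the first migrating state, 46.6, 39.1 and 46.8 in the second and 96.7, 142 and 116 in differentiated neuron-like cells. Grin1, the subunit that every NMDA receptor needs, was at 1.36, 0 and 4.28 in progenitor-like cells, 0.613, 1.58 and 0.967 in the first migrating state and 19.3, 18.3 and 16.1 in differentiated neuron-like cells. Neither gene was higher in the first migrating state than in progenitor-like cells in more than 1 of the 3 libraries, and both were highest in differentiated cells in every library. Grin2c, in contrast, was at 7.999, 4.95 and 3.98 in intermediate progenitor-like cells and 1.72, 0.441 and 1.47 in differentiated neuron-like cells.

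Among kainate and metabotropic genes, Grik3, a kainate subunit, was at 2.04, 1.90 and 0.611 CPM in progenitor-like cells and 48.5, 50.7 and 48.0 in differentiated neuron-like cells. The ranges lay far apart, and the fold of the means was 32.4. Grik2, another kainate subunit, was at 7.48, 2.28 and 2.45 against 17.6, 13.0 and 16.5, and Grm5, a group I metabotropic receptor, at 2.04, 0 and 3.67 against 4.97, 6.62 and 8.64. For both genes, all differentiated values lay above all progenitor-like ones.

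In all, 12 of the 45 genes were at least 2-fold higher in differentiated than in progenitor-like cells of every control library, where 16.7% of all measured genes were. Among the 12 were Gria2, Gria4, Grin1, Grin2b, Grik2, Grik3, Grm5, Grm3 and Gabrb2, the latter pair on few UMIs (31 against 2 and 29 against 1). Of the others, 5 were at least 2-fold lower, where 14.4% of all genes were, 16 did neither, and 12 had fewer than 30 UMIs in these cells and were not measured. Since the states are clusters of the same cells, these counts describe them and carry no test.

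Among the 5 genes that were higher in progenitor-like cells were Gabra4, Gabrb1, Gria3 and Grm7. Gabra4, an alpha subunit of receptors that mostly lie outside synapses, was at 40.1, 28.9 and 34.9 CPM in progenitor-like cells and at 1.34, 1.32 and 2.20 in differentiated neuron-like cells. Gabrb1, a beta subunit, was at 17, 21.3 and 14.7 against 0.573, 0.221 and 1.87. Both were already below 4 CPM in intermediate progenitor-like cells of every control library, with Gabra4 at 0.571, 3.96 and 0.796 and Gabrb1 at 1.14, 0 and 3.19. The start of Gabrb1 overlaps that of Gabra4 on the other strand by 196 bases.

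Gria3, an AMPA subunit, was at 12.9, 8.74 and 9.78 CPM in progenitor-like cells, 4.57, 3.96 and 7.96 in intermediate progenitor-like cells, 12.9, 5.94 and 11.6 in the first migrating state, 5.23, 4.86 and 9.76 in the second and 3.06, 3.31 and 3.99 in differentiated neuron-like cells. It was thus not lower in each successive state, since the first migrating state lay above the intermediate progenitors in every library. Grm7, a presynaptic metabotropic receptor, was at 7.48, 7.98 and 6.73 in progenitor-like and 0.382, 1.54 and 1.87 in differentiated neuron-like cells. In the Atoh1S193A/- libraries, all 5 of the genes higher in progenitor-like cells met the same 2-fold rule in the same direction. Of the 12 above, 10 did. Grm5 did not meet it there, and Grm3 had too few UMIs. Over all genes in these libraries, 16.6% and 16.3% met the rule. These are not the shares among genes that had already met it in controls, so that they do not measure this repeat.

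**Figure D1:**
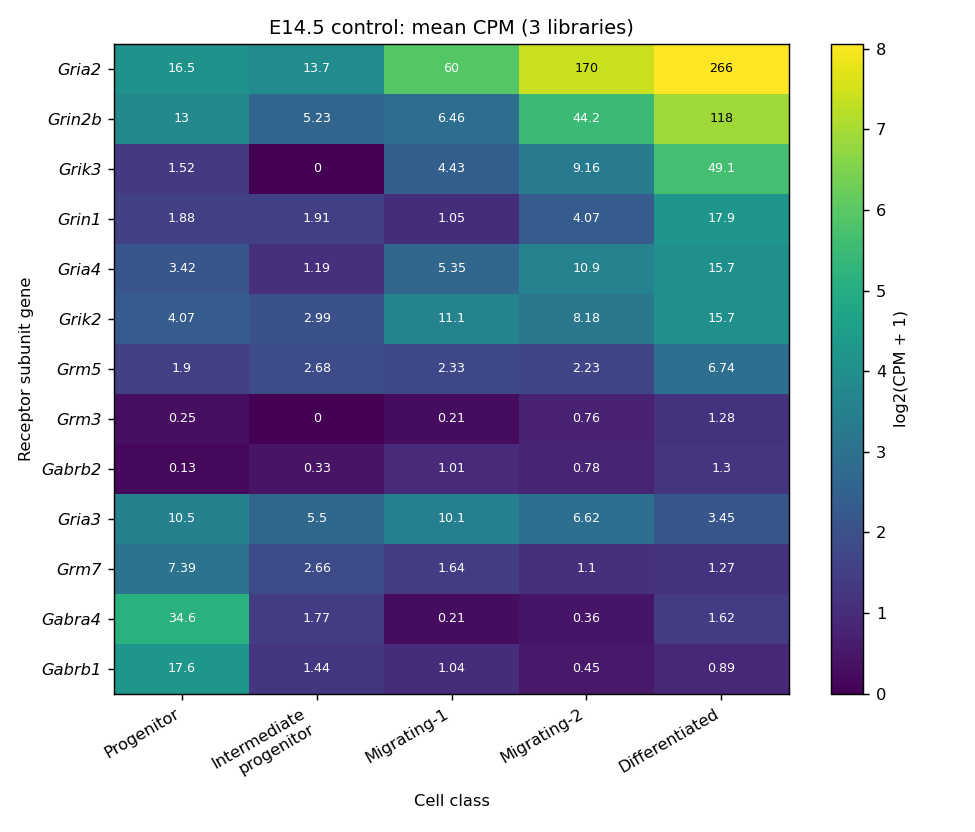
Mean CPM (numbers, with colour as log2 of the value plus 1) of 13 receptor genes that met the 2-fold rule, in the 5 PN-like states of the E14.5 controls (columns). The genes higher in differentiated neuron-like cells are brightest on the right, and Gabra4, Gabrb1, Gria3 and Grm7 are brightest on the left.

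The next question was how the receptors of differentiated PN-like neurons differ between stages in controls (1185 cells at E14.5, 1219 at E18.5 and 6504 at P5). Of the 45 genes, 12 were detected in at least 10% of the cells at E14.5, and all 12 rose to E18.5 (edgeR, false discovery rate under 0.05 and an absolute log2 change over 0.25), while 30.2% of all genes tested rose and 28.3% fell. Another 15 passed this filter on detection only through their level at E18.5, so that the filter fixed their direction. Among them were Gria3, Grin3a, Grik1, Grid1, Grm2, Grm3, Grm5, Grm7, Gabra3, Gabra4, Gabra5, Gabrb1 and Gabrb2. From E18.5 to P5, 27 were detected at E18.5, of which 14 rose, 4 fell and 9 did not pass the test, against 29.4% of all genes that rose and 30.1% that fell, and 6 passed only through P5 (Grin2a, Grin2d, Grik4, Grm4, Grm8 and Gabrd). In the test with no filter on detection, all 15 and all 6 were called as higher at the later stage, where 20.1% and 21.7% of all genes were. Since the same counts had set these genes apart, this is not separate support for the group. A rise stated below for one of them rests on that test and carries no p-value or SE. P5 cells came from dissected PN of pooled pups and embryonic cells from the hindbrain of single embryos, so that stage, dissection and pooling cannot be told apart.

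Among the metabotropic genes named here, Grm3 and Grm5 had the largest log2 changes between E14.5 and E18.5, where the filter had fixed their direction. Between E18.5 and P5 Grm7 had the largest. Grm5, a group I receptor that couples to phospholipase C, was at 4.97, 6.62 and 8.64 CPM in the E14.5 libraries, 159, 148 and 169 at E18.5, and 287 and 272 at P5. The 3 stages did not overlap, and the log2 changes were 4.36 and then 0.88 (SE 0.09, edgeR adjusted p = 5.106e-06). Grm3, a group II receptor that lowers cyclic AMP, was at 0.573, 1.54 and 1.71, then at 71.1, 72.3 and 93.6, and then at 112 and 98.6. It rose by 5.71 on the log2 scale and then by 0.46 (SE 0.12, edgeR adjusted p = 0.005042).

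Other metabotropic genes were lower. Grm7, a group III receptor, was at 0.382, 1.54 and 1.87 CPM at E14.5, then 9.89, 8.79 and 10.8, and then 44.7 and 45.4. Grm2 was at 1.34, 1.76 and 2.28, then 11.7, 11.6 and 10.3, and then 14.03 and 11.35. Grm7 therefore rose at both steps, whereas Grm2 rose at the first and did not pass the test at the second. Grm4 and Grm8, both group III, passed the filter only through P5, and rose from 4.41, 1.60 and 2.04 to 6.33 and 5.27 (Grm4) and from 4.24, 2.20 and 3.86 to 9.88 and 9.41 (Grm8).

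Among AMPA genes, Gria2 was at 269, 302 and 227 CPM at E14.5, 390, 411 and 424 at E18.5, and 540 and 388 at P5. It had the highest mean level of all 45 genes at E18.5 and at P5. At the first step it rose by 0.51 on the log2 scale (SE 0.11, edgeR adjusted p = 0.002321), and its 2 P5 libraries lay on either side of the E18.5 range. Gria4 was at 13.9, 15.9 and 17.2, then 69.0, 75.3 and 85.9, and then 88.8 and 75.0. Gria3 was at 3.06, 3.31 and 3.99, then 19.1, 17.8 and 17.1, and then 59.1 and 49.9. Gria3 alone of the AMPA genes tested rose at both steps, and Gria1, at 10.1, 4.99 and 3.72 at E18.5, was not tested.

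Among NMDA genes, Grin2b was at 96.7, 142 and 116 CPM at E14.5, 326, 342 and 430 at E18.5 and 412 and 331 at P5, a rise of 1.52 on the log2 scale at the first step (SE 0.16, edgeR adjusted p = 2.272e-05) and overlapping ranges at the second. Grin1 was at 19.3, 18.3 and 16.1, then 44.8, 31.8 and 35.3, and then 60.7 and 53.1, and rose at both. Grin3a, a subunit that lowers the calcium permeability of the receptor, was at 1.72, 4.63 and 3.26, then 44.8, 31.6 and 48.2, and then 80.1 and 72.2. Grin2a, the GluN2 subunit that grows with age in most of the brain, and Grin2d were low, and rose from E18.5 to P5 from 2.82, 2.60 and 3.94 to 8.02 and 7.74 and from 5.83, 3.60 and 4.88 to 13.7 and 13.0. Grin2b made up 97.0% ± 0.388 (SD, n = 3) of GluN2 UMIs at E14.5, 97.1% ± 0.558 (SD, n = 3) at E18.5 and 94.3% ± 0.644 (SD, n = 2) at P5.

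The kainate genes changed in both directions. Grik3 was at 48.5, 50.7 and 48.0 CPM at E14.5, 68.8, 58.9 and 65.4 at E18.5 and 33.0 and 26.0 at P5. It rose by 0.28 on the log2 scale (SE 0.09, edgeR adjusted p = 0.02066), a call lost with DESeq2 (0.27), with no filter on detection (0.27), and without E14.5 control 1 (0.24) or 3 (0.28) or E18.5 control 1 (0.25) or 3 (0.26), and then fell by 1.06 (SE 0.11, edgeR adjusted p = 6.564e-06). Grik2 was at 17.6, 13.0 and 16.5, then 30.7, 30.2 and 30.0, and then 18.9 and 20.4, and so also rose and fell. Grik1 was at 3.82, 2.65 and 5.46, then 20.1, 17.4 and 26.9, and then 22.1 and 23.3. Grik5 was at 18.3, 23.4 and 24.2, then 37.2, 45.7 and 42.3, and then 42.1 and 38.1. Grik1 and Grik5 rose at the first step and did not pass the test at the second. Grik4 rose at the second, from 3.71, 3.19 and 3.06 to 5.72 and 5.44.

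Grid1, a delta receptor gene, was low, at 2.10, 5.73 and 2.28 CPM at E14.5, 7.59, 8.79 and 10.6 at E18.5 and 11.4 and 10.1 at P5. It rose at the first step and did not pass the test from E18.5 to P5.

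**Figure D2:**
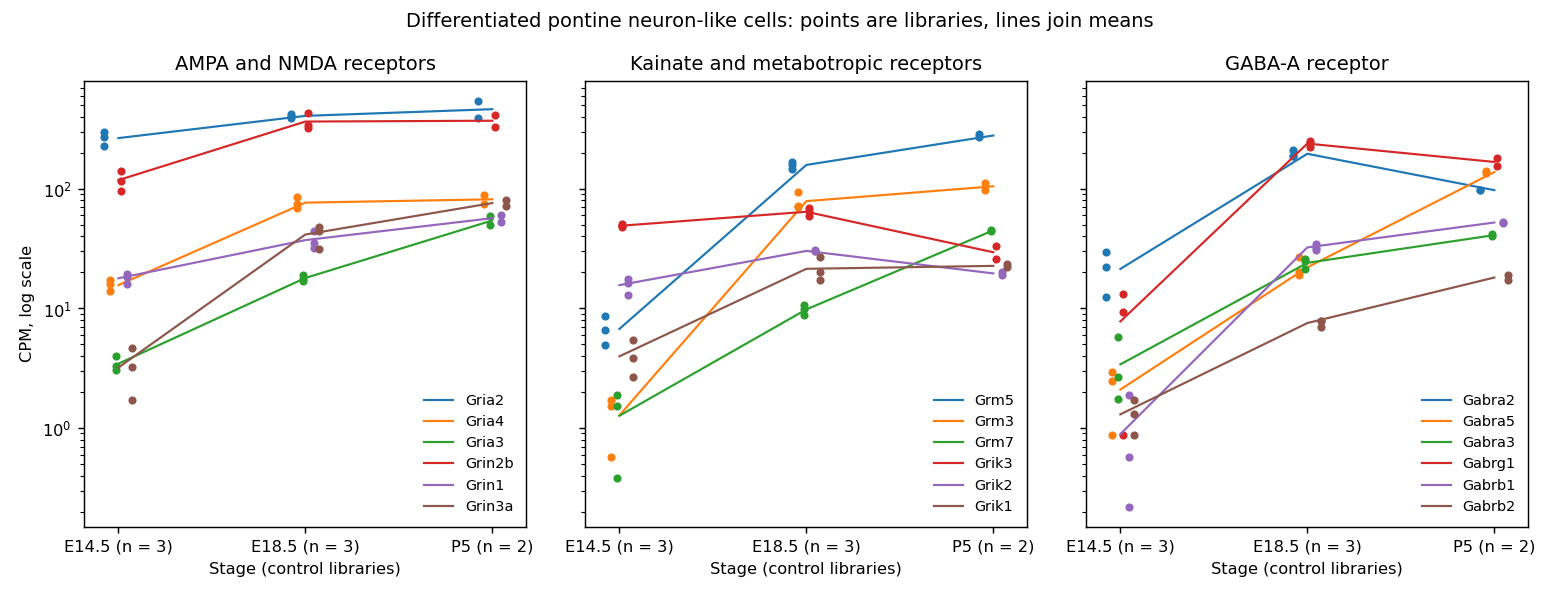
Levels (CPM, log axis) of receptor genes in differentiated PN-like neurons of each control library at E14.5, E18.5 and P5, with points for libraries and lines through the means. Of the plotted genes, Grm3 climbs most between E14.5 and E18.5, followed by Gabrb1, Gabrg1 and Grm5, and Gabra2, Gabrg1, Grik2 and Grik3 are lower at P5 than at E18.5.

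The GABA-A genes changed their proportions. Gabra2, the alpha subunit that prevails in the immature brain, was at 22.2, 12.6 and 29.5 CPM at E14.5, 189, 190 and 211 at E18.5 and 97.8 and 97.4 at P5. It rose by 3.02 on the log2 scale (SE 0.21, edgeR adjusted p = 2.165e-06) and then fell by 0.95 (SE 0.09, edgeR adjusted p = 2.736e-06). Gabra5, an alpha subunit known for tonic inhibition in the hippocampus, was at 2.48, 0.882 and 2.93, then 27.0, 20.4 and 18.9, and then 140 and 136, and its P5 change was 2.74 (SE 0.11, edgeR adjusted p = 5.677e-09). Both P5 libraries thus lay below all E18.5 controls for Gabra2 and above all of them for Gabra5.

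As a share of the UMIs of the 6 alpha genes, Gabra2 went from 72.5% ± 2.89 (SD, n = 3) at E18.5 to 27.9% ± 0.368 (SD, n = 2) at P5, and had been at 71.8% ± 1.03 (SD, n = 3) at E14.5. Gabra5 went from 8.15% ± 1.63 (SD, n = 3) to 39.5% ± 0.0919 (SD, n = 2). Gabra5 was therefore the alpha gene with the most UMIs at P5. Gabra3 was at 2.67, 1.76 and 5.79 CPM at E14.5, 25.9, 21.4 and 24.9 at E18.5 and 42.1 and 40.1 at P5. Gabra4 was at 1.34, 1.32 and 2.20, then 19.8, 16.0 and 20.1, and then 22.6 and 22.1. Its second rise, by 0.31 on the log2 scale (SE 0.12, edgeR adjusted p = 0.0409), was not called without E18.5 control 1 (0.32) or 2 (0.23) or without either P5 library (0.31 for each).

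Gabrg1, a gamma subunit of limited distribution in the adult brain, was at 9.36, 0.882 and 13.1 CPM at E14.5, 224, 252 and 242 at E18.5 and 155 and 181 at P5. It rose by 4.63 on the log2 scale (SE 0.38, edgeR adjusted p = 4.854e-06) and then fell by 0.45 (SE 0.10, edgeR adjusted p = 0.00261). The Gabrg1 level of E14.5 control 2 lay far below that of the other two E14.5 controls, and E14.5 Atoh1S193A/- 2, its littermate, was at 0.314 where the other two were at 19.0 and 17.4.

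Among the beta and delta genes, Gabrb1 was at 0.573, 0.221 and 1.87 CPM at E14.5, 32.1, 30.6 and 34.5 at E18.5 and 53.3 and 51.4 at P5, and its first change was 4.64 on the log2 scale. Gabrb2 was at 1.72, 0.882 and 1.30, then 7.06, 7.79 and 7.80, and then 19.1 and 17.2. Gabrb1 and Gabrb2 rose at both steps. Gabrd, the delta subunit of receptors outside synapses, was near 0 before birth, at 0.176, 0 and 0.146 at E18.5, and at 5.14 and 7.01 at P5, a rise of 5.65 on the log2 scale from so few UMIs that the size depends on the prior count.

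**Figure D3:**
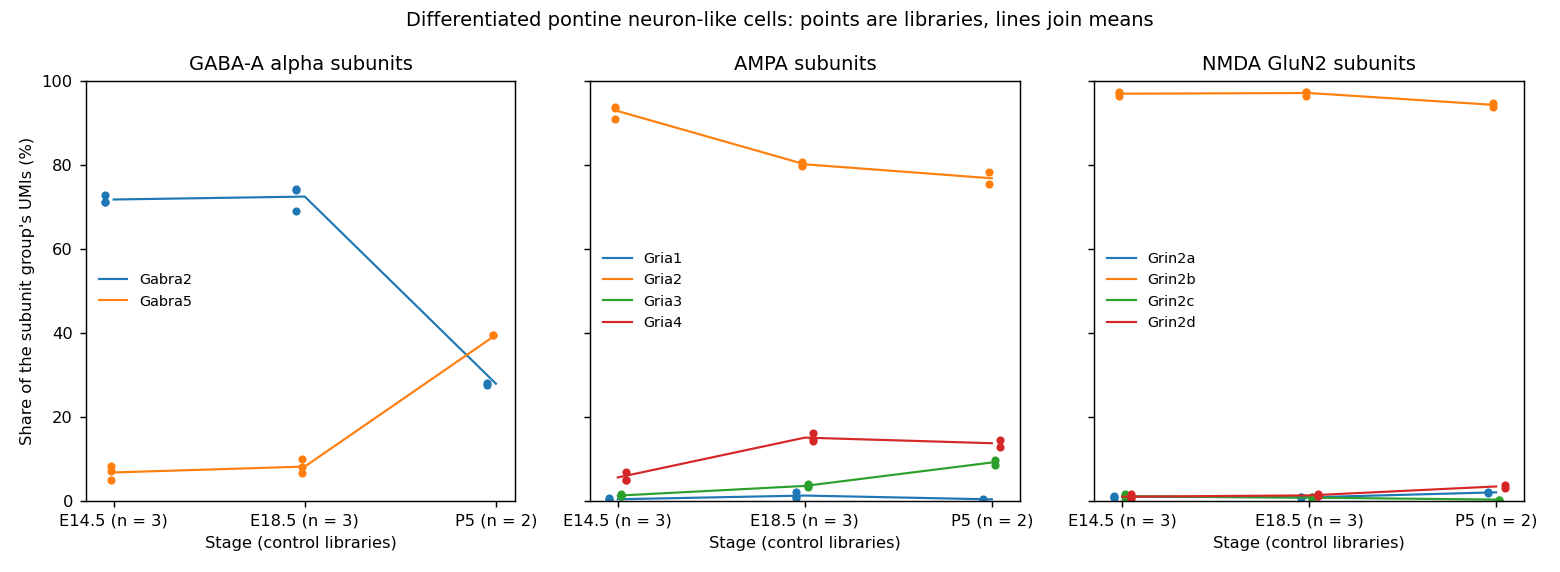
Share (percent) of the UMIs of a subunit family held by Gabra2 and Gabra5 among the alpha genes, by the AMPA genes and by the GluN2 genes, in differentiated PN-like neurons of each control library at E14.5, E18.5 and P5, with points for libraries and lines through the means. Gabra2 goes from 72.5% at E18.5 to 27.9% at P5 and Gabra5 from 8.15% to 39.5%, and Grin2b stays above 90% of GluN2 UMIs.

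The sequences before 3 GABA-A genes are shown because Gabra2 and Gabra5 carry the change in alpha shares and Gabrg1 rose and fell between the stages, and because Atoh1 binds E-boxes. The 3 were picked after their values were seen. Each is the 250 bases before the annotated start (RefSeq, GRCm38.p6), on the minus strand, 5′ to 3′, with every E-box (CANNTG, which reads the same pattern on both strands) in capitals.
Gabrg1, chr5:70842618-70842867: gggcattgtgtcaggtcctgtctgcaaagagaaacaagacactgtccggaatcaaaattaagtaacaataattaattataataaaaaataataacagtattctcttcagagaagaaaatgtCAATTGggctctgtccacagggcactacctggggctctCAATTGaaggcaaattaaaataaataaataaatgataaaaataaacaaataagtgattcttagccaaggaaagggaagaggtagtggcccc
Gabra2, chr5:71095850-71096099: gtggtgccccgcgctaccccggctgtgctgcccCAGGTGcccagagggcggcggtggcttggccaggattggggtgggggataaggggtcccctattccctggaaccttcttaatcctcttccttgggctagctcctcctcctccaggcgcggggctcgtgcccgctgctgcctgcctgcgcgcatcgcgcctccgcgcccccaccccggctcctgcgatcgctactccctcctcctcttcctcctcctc
Gabra5, chr7:57510060-57510309: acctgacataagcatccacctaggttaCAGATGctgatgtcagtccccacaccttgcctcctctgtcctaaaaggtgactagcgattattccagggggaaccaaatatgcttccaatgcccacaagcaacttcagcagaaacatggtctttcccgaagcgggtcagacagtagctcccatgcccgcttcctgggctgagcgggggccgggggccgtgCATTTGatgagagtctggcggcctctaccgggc
There were 2 E-boxes before Gabrg1, 1 before Gabra2 and 2 before Gabra5. An E-box was found in 66.2% of all 32851 promoter windows of this length and in 18 of the 37 windows of the 30 receptor genes with a sequence (48.6%). A match is a description of these letters and not of binding. Gabrg1, Gabra2, Gabra4 and Gabrb1 lie together on chromosome 5 within 1.40 Mb. They differed in direction: Gabrg1 and Gabra2 fell from E18.5 to P5 while Gabra4 and Gabrb1 rose. Part of Gabra5 is overlapped by a gene on the opposite strand, and reads there could be split only by strand.

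At P5 the 6 PN-like subtypes differed in their receptor genes. Levels are given for the 2 libraries in turn and are a description, because the subtypes are clusters of the same cells. Gabra5 was at 297 and 322 CPM in PN6-like cells, 197 and 203 in PN1-like cells and 67.9 and 65.0 in PN3-like cells. Gabrd was at 26.4 and 36.5 in PN6-like and 0.768 and 0.663 in PN3-like cells, 34.4- and 55.0-fold apart. Gabra5 and Gabrd thus had both their highest level in PN6-like and their lowest in PN3-like cells. Grm8 was at 19.4 and 23.0 in PN6-like, 16.8 and 14.6 in PN4-like and 0.973 and 0.756 in PN5-like cells. Gria2 was also highest in PN6-like cells, at 862 and 657, and lowest in PN4-like cells, at 406 and 273.

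PN5-like cells stood apart by what was low in them. Grin3a was at 120 and 110 CPM in PN3-like and 10.9 and 6.05 in PN5-like cells, 11.0- and 18.2-fold apart. In CPM these PN5-like levels were close to the free-RNA background given below for microglia-like cells, so that the folds are not exact. Microglia-like cells held fewer UMIs per cell than PN5-like cells, and the background in PN5-like cells themselves was not measured. Gria3 was at 82.4 and 79.2 in PN2-like cells, 21.5 and 16.8 in PN3-like cells and 10.2 and 4.91 in PN5-like cells. Grm3 was at 140 and 136 in PN2-like and 33.2 and 27.4 in PN5-like cells. Grik1, a kainate subunit, went the other way, with 73.6 and 75.4 in PN5-like and 15.2 and 13.7 in PN1-like cells. Grin3a, Gria3 and Grm3 were lowest, and Grik1 highest, in PN5-like cells of both libraries.

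PN4-like cells had the highest Grik2, at 35.1 and 39.9 CPM. Gabrg3 was at 7.26 and 7.21 in PN3-like and 0.422 and 0.361 in PN1-like cells. Gabra5 differed 4.38- and 4.96-fold between the highest and lowest subtype of a library.

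At E18.5 the control subtypes already differed. Gabrg1 was at 334, 395 and 313 CPM in ePN2-like cells and 129, 148 and 186 in ePN3-like cells. Gabrb2 was at 12.03, 14.6 and 15.5 in ePN3-like and 2.28, 2.89 and 2.67 in ePN2-like cells. Grik1 was at 34.3, 35.6 and 57.0 in ePN1-like and 10.0, 5.47 and 4.79 in ePN3-like cells. Gabrb2 had its highest level in ePN3-like cells in every control library and in PN4-like cells at P5. The fixed markers of ePN3 and PN4 both include Hoxb5 and Hoxc4. The ePN3-like class held a cluster of 99 cells led by Lrfn5, with Ntng1, a fixed marker of ePN4, among its leading genes. Without it, Gabrb2 was at 11.7, 15.5 and 16.8, Gabrg1 at 113, 138 and 176 and Grik1 at 11.1, 5.62 and 4.68 in ePN3-like cells. The ePN1-like class held a cluster of 68 cells led by Nr2f2, with Grik1 among its leading genes, where Grik1 was at 96.7, 86.4 and 138 in the controls (10, 15 and 26 cells). Without it Grik1 was at 24.4, 24.3 and 43.0 in ePN1-like cells.

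Beside the PN, Grik2 stood out at E18.5. It was at 116, 102 and 115 CPM in granule neuron-like cells against 30.7, 30.2 and 30.0 in differentiated PN-like neurons, and the ranges lay apart.

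Several receptor genes were highest in glia-like cells. At P5, Grm3 was at 188 and 155 CPM in astroglia-like cells and at 8.20 and 1.99 in microglia-like cells, which should lack it and show the free-RNA background of each library. Gabrb1 was at 145 and 127 against 4.98 and 1.24, and Gabra4 at 66.4 and 71.0 against 2.25 and 1.24. The astroglia-like levels of these 3 genes exceeded the microglia-like ones in both libraries, and they exceeded those in every PN-like subtype. Grin2c, known from mature astrocytes and cerebellar granule cells, was at only 2.95 and 3.23 there and 0 and 0 in microglia-like cells.

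Astroglia-like cells also held genes that PN-like neurons shared, with Gabrg1 at 170 and 153 CPM, Grm5 at 159 and 121 and Grin3a at 109 and 102. In microglia-like cells these were at 16.1 and 4.73, 24.6 and 8.71, and 12.2 and 3.98, below the astroglia-like level of the same library for each gene. At E18.5, Gabrb1 was at 76.0, 99.8 and 124 in astroglia-like cells of controls, Gabra4 at 41.2, 94.0 and 45.9 and Gria1 at 25.3, 76.4 and 56.8. These rest on 134 cells and varied by over 2-fold for Gabra4 and Gria1. At E14.5 the 100 astroglia-like cells of controls had Gabrb1 at 99.3, 52.6 and 24.5 and Grm7 at 92.0, 37.3 and 56.6. Gabra4 and Gabrb1 were thus higher in E14.5 PN-like progenitors than in neuron-like cells, and were highest in astroglia-like cells at E18.5 and P5.

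The oligodendrocyte lineage-like clusters at P5 differed from each other. The cluster led by Pdgfra, a gene of oligodendrocyte precursors, had Gria2 at 662 and 457 CPM, Gria3 at 185 and 169, Grin3a at 214 and 144, Gria4 at 121 and 109 and Grm5 at 141 and 116. The cluster with Mag and Mbp, genes of myelinating cells, among its leading genes had Gria2 at 65.2 and 42.9, Gria3 at 3.74 and 2.52, Grin3a at 4.54 and 4.54 and Grm5 at 12.8 and 6.06. Grik2, at 65.0 and 61.1 against 54.1 and 30.9, and Grm4, at 17.1 and 15.6 against 3.48 and 0, were higher in the Mag-led cluster. Gria4 was at 40.6 and 37.3 in the Mag-led cluster, and Gria1 at 22.8 and 14.8 against 0 and 0. All 4 AMPA genes were therefore higher in the precursor-like cluster of both libraries, and these values cover only 439 and 199 cells.

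**Figure D4:**
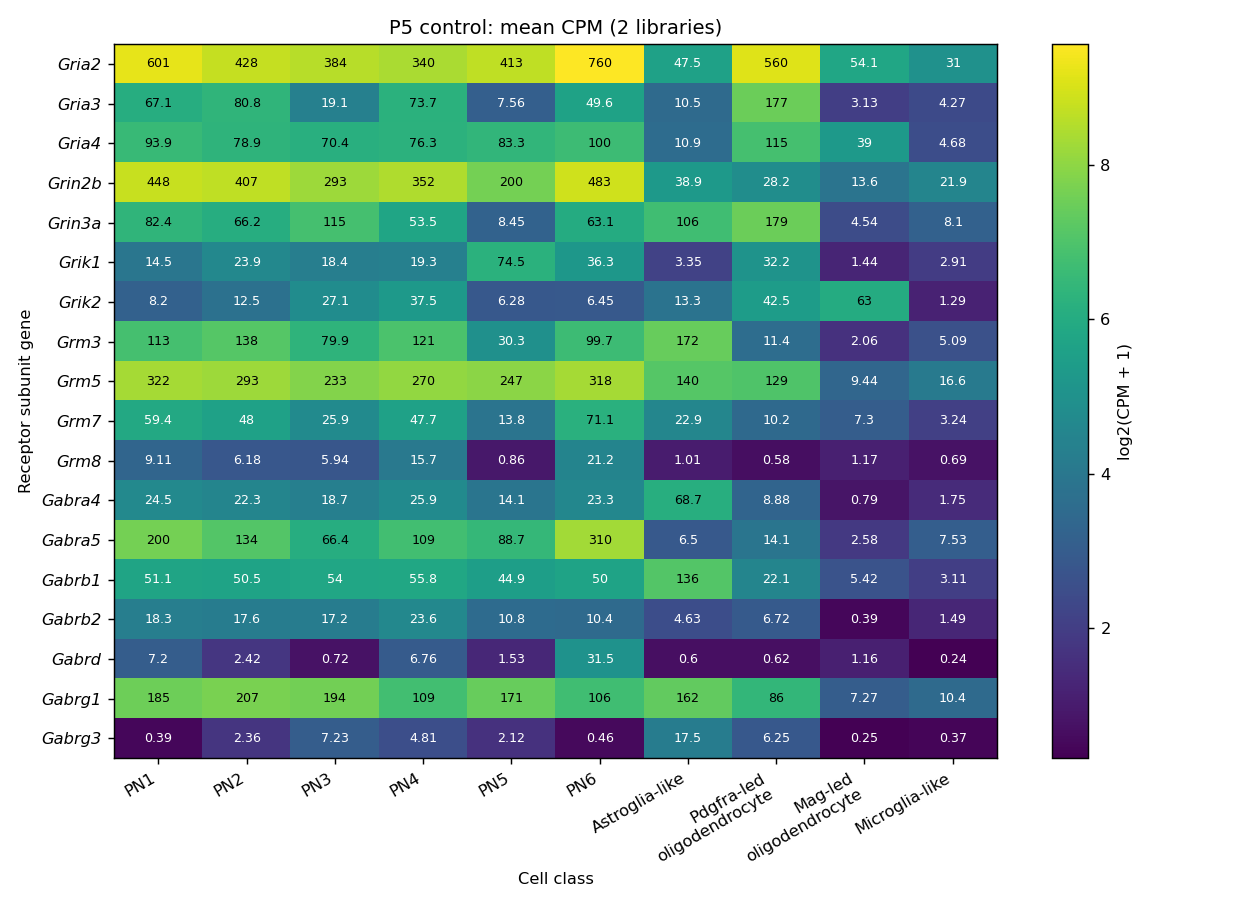
Levels (CPM, colour on a log2 scale) of receptor genes in the PN-like subtypes and glia-like classes of P5 controls, as the mean of the 2 libraries. Gabra5 is highest in PN6-like cells, Grik1 in PN5-like cells, and Grm3, Gabra4 and Gabrb1 in astroglia-like cells.

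The remaining question was whether partial loss of Atoh1 function changes receptor gene levels within a class. For the differentiated neuron-like cells of the PN lineage it gave no call at either stage. At E14.5, 13 of the 45 genes were tested there and none was called by edgeR or by DESeq2, with 0 at an unadjusted p under 0.05, and 0% of all 9820 genes were called. At E18.5, 27 were tested in differentiated PN-like neurons and none was called by edgeR or by DESeq2, with 3 at an unadjusted p under 0.05, and 0.0801% of all genes were called. These 3 were Gabra2, at 189, 190 and 211 CPM in controls and 174, 164 and 174 in Atoh1S193A/- libraries, Gabra5, at 27.0, 20.4 and 18.9 against 27.2, 29.2 and 27.4, and Gabrb1, at 32.1, 30.6 and 34.5 against 39.7, 42.0 and 40.2. Their log2 differences were -0.21, 0.35 and 0.30 with edgeR adjusted p-values of 0.6959, 0.7283 and 0.5959. The ranges did not overlap for any of the 3, which adds no support because they were picked by p-value. The subtypes in this class also differed, with ePN1-like cells making up 26.4%, 25.8% and 27.0% of it in controls and 8.99%, 7.90% and 9.76% in Atoh1S193A/- libraries. In the control libraries Gabra2 was highest and Gabra5 lowest in ePN1-like cells, and the part of the subtypes in these differences was not tested.

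The other PN-like states gave no call among receptor genes by edgeR or by DESeq2. At E14.5, 12 were tested in progenitor-like cells (0 at an unadjusted p under 0.05, 0.00991% of all genes called), 5 in intermediate progenitor-like cells (0, 0.033%), 7 in the first migrating state (1, 0.15%) and 11 in the second (0, 0%). At E18.5, 19 were tested in migrating neuron-like cells (2, 0.0314%). The 1 at E14.5 was Gria2 in the first migrating state, at 50.3, 68.9 and 60.9 CPM in controls and 52.1, 27.6 and 39.9 in Atoh1S193A/- libraries. The Atoh1S193A/- library with 27.6 held only 15 cells of that state. In each of these classes most of the 45 receptor genes were not tested, because they were detected in under 10% of cells.

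Outside the PN lineage, 19 genes were tested in E18.5 astroglia-like cells (1 at an unadjusted p under 0.05, 0% of all genes called), 10 in granule neuron-like cells (1, 0.011%) and 11 in unipolar brush cell-like cells (1, 0%), with none called by edgeR or DESeq2. The 1 in astroglia-like cells was Gria1, at 25.3, 76.4 and 56.8 CPM in controls and 224, 53.8 and 209 in Atoh1S193A/- libraries, where the ranges overlapped.

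Granule progenitor-like cells at E18.5 were the 1 class with a call among the receptor genes. Of 12 tested, Grin2a fell (1 called, 3 at an unadjusted p under 0.05), where 0.211% of all genes were called. Grin2a (chr16:9567898-9995560, minus strand, GRCm38) was at 12.3, 12.2 and 10.7 CPM in controls and at 6.59, 5.87 and 5.44 in Atoh1S193A/- libraries, so that the lowest control lay above the highest mutant. It fell by 0.98 on the log2 scale. It passed the filter only through the controls, with a UMI in 16.5% of their cells against 9.27% of the mutants', so that the filter fixed the direction. In the test with no filter it fell by 0.97 and was also called, where 0.429% of all genes were. The same counts had set Grin2a apart, so that this is not separate support. Without E18.5 control 1 (-0.97), E18.5 control 2 (-0.93), Atoh1S193A/- 2 (-0.97) or Atoh1S193A/- 3 (-0.92) the call was lost.

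Grik3 in the same cells was at 17.8, 13.5 and 17.6 CPM in controls and 10.2, 8.15 and 12.2 in Atoh1S193A/- libraries, with no overlap. Its log2 change of -0.72 had an edgeR adjusted p of 0.194 without the block and 0.002696 with it, where 1.29% of all genes were called. DESeq2 called it too, and the calls of DESeq2 over all genes are given at the end. Gria3, the third gene at an unadjusted p under 0.05, was at 8.24, 7.06 and 8.18 against 6.06, 7.07 and 6.54.

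Grin2a was low in granule neuron-like cells, at 1.72, 2.38 and 2.28 CPM in controls, and in unipolar brush cell-like cells, at 0.173, 0.654 and 1.03. By cluster, the mean in granule progenitor-like clusters went from 16.98 ± 2.46 (SD, n = 3) to 8.19 ± 1.47 (SD, n = 3), from 14.1 ± 0.675 (SD, n = 3) to 4.66 ± 2.28 (SD, n = 3) and from 24.6 ± 3.26 (SD, n = 3) to 14.6 ± 3.02 (SD, n = 3), with every mutant library below every control in each. In the fourth it was 0.777 ± 0.296 (SD, n = 3) and 0.651 ± 0.278 (SD, n = 3), and this cluster held 35.5%, 38.6% and 38.8% of the class in controls and 38.5%, 30.9% and 33.4% in Atoh1S193A/- libraries. Grin2a was thus lower in mutants within 3 of the 4 clusters. These clusters divide the cells in which it had been called, so that this adds no support. Of 15 unnamed clusters, every mutant lay below every control in 4 and above every control in 1, at 5.03 ± 1.66 (SD, n = 3) in controls and 9.58 ± 2.25 (SD, n = 3) in mutants, and the ranges overlapped in 10.

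**Figure D5:**
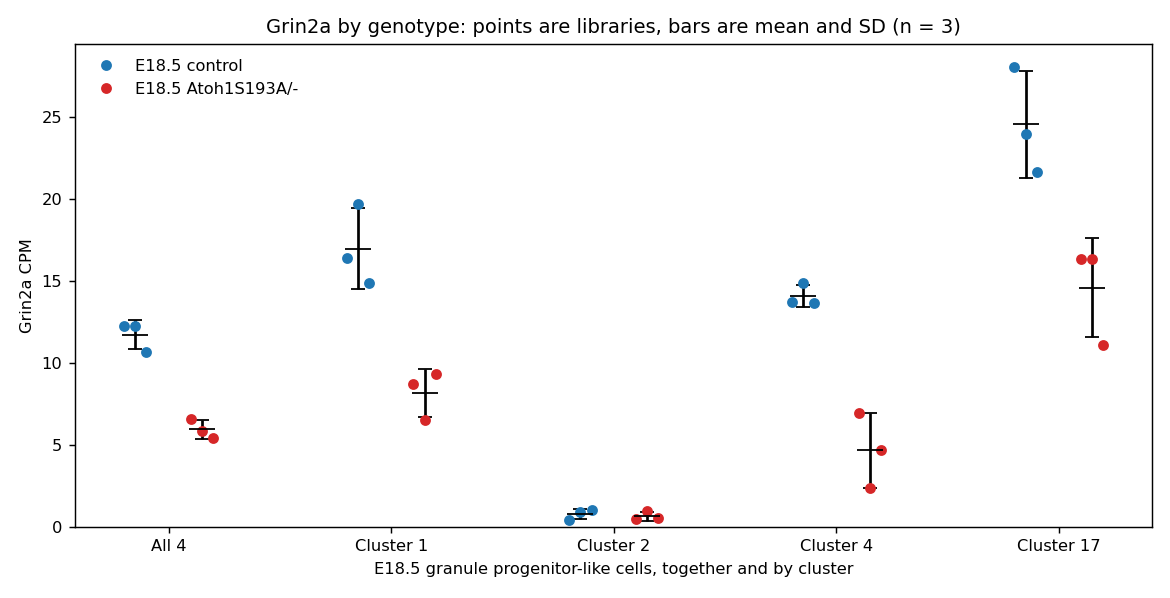
Grin2a level (CPM) in the E18.5 granule progenitor-like cells of each control and Atoh1S193A/- library, and in each granule progenitor-like cluster, with points for libraries and bars for the mean and SD (n = 3). All 3 controls, at 10.7 to 12.3, lie above all 3 mutants, at 5.44 to 6.59. Grin2a was picked because it was called in these cells, so that the separation adds no support.

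Summed over all sorted cells, levels also move with the cell types a library holds, and fewer cells of a type and less RNA per cell cannot be told apart. No receptor gene was called for genotype in these sums by edgeR or by DESeq2: 19 were tested at E14.5 (3 at an unadjusted p under 0.05, 0.00977% of all genes called) and 18 at E18.5 (1, 0%). With the littermate as a block, 5 were called at E14.5, where 17.6% of all genes were. E14.5 controls 1 and 2 were counted with Cell Ranger 3.1.0 and their littermates with 5.0.1. In these pairs genotype and software version cannot be told apart. Among the 5 was Gabra4, at 5.88, 4.77 and 6.18 CPM in controls and 8.11, 5.39 and 9.48 in mutants. It had passed the filter only through the mutants, which fixed its direction, and with neither the filter nor the block it was not called.

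In the same fit with the block, Gria3 fell by 0.28, from 16.0, 27.5 and 20.6 CPM to 13.8, 22.1 and 17.4 (edgeR adjusted p = 0.02091), and Grin1 fell by 0.40, from 10.6, 12.8 and 12.8 to 9.03, 8.99 and 10.0 (edgeR adjusted p = 0.02362). Each mutant lay on the same side of its littermate for these 3 genes, which adds no support because the fit with the block had picked them. The paper lists E14.5 control 1 as female and E14.5 Atoh1S193A/- 1 as male, and the part of sex was not tested. Gabra4, which was higher in mutants, and Gria3, which was lower, are both among the genes higher in progenitor-like cells. Grin1, which was lower in mutants, is among those higher in differentiated cells. Progenitor-like cells made up 2.22%, 1.84% and 1.29% of the cells of the controls and 7.52%, 4.59% and 7.90% of those of the mutants, and choroid plexus- and ependyma-like cells 0.616%, 0.708% and 0.944% against 1.03%, 2.16% and 5.48%. Their part in the result was not tested.

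The genotype effect was also compared between stages in all sorted cells, over 22 receptor genes. None was called by edgeR or by DESeq2 (1 at an unadjusted p under 0.05, 0% of all genes called), and with the littermate block 4 were, where 14.54% of all genes were. Of the 4, 3 had a higher genotype effect at E18.5 than at E14.5 and 1, Grin2a, a lower one. Grin2a was at 8.48, 8.77 and 8.77 CPM in E14.5 controls, 8.87, 9.19 and 10.0 in E14.5 mutants, 9.68, 10.7 and 10.9 in E18.5 controls and 7.49, 7.15 and 8.83 in E18.5 mutants. It was higher in each mutant than in its littermate at E14.5 and lower at E18.5. E14.5 controls 1 and 2 were counted with Cell Ranger 3.1.0 and the other libraries with 5.0.1, and the part of this was not tested.

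From E14.5 to E18.5 in the controls' sums over all sorted cells, 22 receptor genes were tested, of which 8 rose and 2 fell, against 26.5% and 25.1% of all genes. Of the 8, 3 had passed the filter only through E18.5, Gabrg1 among them, and of the 2, Gria1 only through E14.5. With no filter these 4 were also called in the same direction, where 16.1% of all genes rose and 15.7% fell. The same counts had set them apart, so that this is not separate support. Gabrg1 rose by 3.07 on the log2 scale and Grik2 by 1.54 (SE 0.12, edgeR adjusted p = 0.0004379). Gria1 fell by 1.61, from 8.58, 13.6 and 10.3 CPM to 3.36, 2.58 and 5.33, and Gria3 by 1.17 (SE 0.22, edgeR adjusted p = 0.004617). Gria3 thus rose in differentiated PN-like neurons and fell in the sums. Grik3, Gria2 and Grin2b also rose, and the call of Grin2b (0.88) was lost without E14.5 control 1 (0.66), E14.5 control 3 (0.97) or E18.5 control 3 (0.59).

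Some receptor genes were close to absent. Gabrp had no UMI in the differentiated PN-like neurons of any library, and Gabra6, which marks mature cerebellar granule cells, had at most 0.720 CPM there. Gabre, Gabrq, Gabrr1, Gabrr2, Gabrr3, Grin3b and Grm6 stayed below 1 CPM in these cells of every library, and Grin2c and Gabrg3 below 5. These genes did not pass the filter on detection in differentiated PN-like neurons and were not tested there.

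Other genes of the same synapses were counted from a list of 49, with receptor partners, scaffolds, RNA editing enzymes and chloride transporters. In differentiated PN-like neurons, 28 rose and 8 fell of 41 tested from E14.5 to E18.5, where 30.2% and 28.3% of all genes did. Of these, Shank2, Shank3, Shisa6 and Slc12a5 had passed the filter only through E18.5 and Adarb2 and Nptx2 only through E14.5, which fixed their direction, and with no filter these 6 were also called. The largest rises were in Shisa6 (3.92 on the log2 scale) and Shisa9 (2.52), AMPA receptor partners, and Slc12a5 (3.05), the chloride exporter that makes GABA inhibitory, and the largest falls in Adarb2 (-3.51), an editing enzyme homologue, Nptx2 (-2.52), which gathers AMPA receptors, and Homer3 (-1.59), a scaffold of group I metabotropic receptors. From E18.5 to P5, 19 rose and 7 fell of 41 (29.4% and 30.1% of all genes), led by Slc12a5 (2.30) and the glycine receptor genes Glrb (1.80) and Glra3 (1.57), and by falls in Cacng7 (-1.74), Homer3 (-1.64) and Cacng4 (-1.01). Glra3 and Cnih3 had passed only through P5 and Homer3 only through E18.5, and with no filter these 3 were also called. In the sums over all sorted cells 12 rose and 8 fell of 40 (26.5% and 25.1% of all genes), led by Adarb1 (1.51), Cacng7 (1.48) and Shisa9 (1.47) and by Cnih2 (-1.33), Shisa7 (-1.24) and Nptx2 (-1.05). Here Shisa9 and Neto1 had passed only through E18.5 and Shisa7 and Nptx2 only through E14.5, and all 4 were also called with no filter. None of the 49 was called for genotype in any class by edgeR without the block, with 0 to 7 at an unadjusted p under 0.05 in each test. DESeq2 called Cnih2 in the E14.5 sums over all sorted cells and Nptx1 in E18.5 granule progenitor-like cells, and its calls over all genes are given at the end. With the littermate block, 8 of 38 were called in those E14.5 sums (17.6% of all genes) and 3 of 40 in the comparison of stages (14.54%). In single classes, 2 of 27 were called in intermediate progenitor-like cells (1.42%), 1 of 28 in the first migrating state (1.64%) and 2 of 34 in granule progenitor-like cells (1.29%).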

How the data were processed

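The deposited files were filtered matrices of UMI counts, whole numbers per gene and cell, which the authors made from 10x Genomics 3′ libraries with Cell Ranger (3.1.0 for E14.5 controls 1 and 2 and 5.0.1 for the other 12 libraries, per the file headers) on the mouse genome mm10 with a WPRE sequence added. Cells with at least 1000 genes and under 5% mitochondrial UMIs were kept, and the 7.5% with the highest Scrublet score in each library were removed. Cells of each stage were scaled to 10000 UMIs, log-transformed and clustered in scanpy 1.11.5 (Python 3.11.15; 2000 variable genes without the receptor and synapse lists, 30 components, 15 neighbours, Leiden resolution 1.0), with no correction between libraries, and clusters were named from markers. Clusters that the markers did not name stayed unnamed.

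UMIs were summed per library and class, in classes with at least 10 cells in every library compared, and tested over every gene detected in 10% or more of the cells in either group by the quasi-likelihood F test of edgeR 4.0.16 (R 4.3.3, TMM scaling, Benjamini-Hochberg adjustment). A gene was called at an adjusted p under 0.05 and an absolute log2 change over 0.25. The SE of an edgeR change was taken as its absolute value divided by the square root of the F statistic. DESeq2 1.42.0, other filters and leaving out libraries were alternatives. The test was also run on simulated counts in which the libraries were independent, which did not check it under the correlation given next. The labels give replicate numbers, and the same number was taken to mark littermates. The deviations of same-numbered libraries from their group means correlated across genes at 0.675 to 0.891, against -0.739 to 0.340 for other pairs. The number was therefore taken as a block in a second fit, where litter and a shared preparation cannot be told apart.

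The receptor genes and all lists were chosen with earlier results of these data known. Values per library are given for receptor genes called in a test, for the 12 with the highest mean in differentiated PN-like neurons at E18.5 or P5, and for those highest in a glia-like class, and synapse genes only where called for genotype or among the 3 largest stage changes in each direction. Some genes are counted in the totals but are not reported by name here.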

Additional observations from a re-analysis of the deposited data

Results flagged for a closer look

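In all sorted cells, the genotype effect differed between E18.5 and E14.5 for 4 receptor genes when the littermate was a block (edgeR, adjusted over all genes), where 14.54% of all genes tested differed. The effect was higher at E18.5 for 3 of the 4 and lower for 1, Grin2a. The difference in log2 effect was -0.4976 for Grin2a (SE 0.0957, edgeR adjusted p = 0.01535). Without the block the edgeR adjusted p was 0.5294. Grin2a was at 8.48, 8.77 and 8.77 CPM in E14.5 controls and 8.87, 9.19 and 10.0 in E14.5 mutants, and at 9.68, 10.7 and 10.9 against 7.49, 7.15 and 8.83 at E18.5. The share of progenitor-like cells also differed between the genotypes at E14.5, and its part in this result was not tested. Cell Ranger was 3.1.0 for E14.5 controls 1 and 2 and 5.0.1 for their littermates, and its part was not tested either.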

How the results depend on the processing

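With the littermate (replicate) block, 5 receptor genes in place of 0 were called for genotype in the E14.5 sums (17.6% of all genes). For the difference between stages 4 in place of 0 were called (14.54%), and in granule progenitor-like cells 2 in place of 1 (1.29%). The pairing changed no other count of receptor genes. In granule progenitor-like cells leaving out 1 library gave 0 to 1, and DESeq2 called 2, with its calls over all genes given in the next paragraph. The test without the filter on low counts called 3 there, where 0.429% of all genes were called. Without that filter 1 of 38 tested was called in astroglia-like and 1 of 40 in migrating PN-like cells at E18.5. These single calls stand without the share of all genes and are not read further. Between stages in all sorted cells 26 of 44 were called in place of 10 of 22, where 16.1% of all genes rose and 15.7% fell without the filter. The cause was not tested, except that the test without the filter covered up to 44 receptor genes. Of the alternative values of called log2 changes, 712 kept direction and call, 32 kept the direction only and 0 reversed.

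Over all genes, the calls for genotype by edgeR, by DESeq2 and with the block were 1, 249 and 1802 in the E14.5 sums, 0, 13 and 25 in the E18.5 sums, 21, 76 and 128 in granule progenitor-like cells and 8, 22 and 48 in differentiated PN-like neurons at E18.5. Where only libraries of Cell Ranger 5.0.1 were kept, 1 E14.5 control remained, and its spread was assumed to be that of the others. Among the calls between stages then lost were those of Grin2b (0.72) in all sorted cells and of Grik3 (0.25) in differentiated neurons. The 2-fold counts between states were also repeated without each E14.5 control in turn, where fewer libraries had to meet the rule. Neither count changed markedly.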
